A study of Mus musculus with 40 samples.

Results

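The interferon-stimulated gene families are genes that cells switch on when interferon, the antiviral cytokine, binds its receptors. They were taken here as 60 of the 11119 genes measured in regenerating mouse liver, chosen by their symbols alone: the Ifi, Ifit, Ifitm, Oas, Gbp, Irgm, Isg and Irf name stems, and single symbols such as Stat2, Parp10, Parp12, Parp14, Igtp, Iigp1, Ddx58, Dhx58, Rtp4 and Xaf1, with Zbp1, Rsad2, Cmpk2 and Usp18 added by name. The rule uses no expression value, but it was set with earlier results of these data known. Polyadenylated RNA was sequenced from liver, labelled as hepatocytes, of 40 samples. Partial hepatectomy (PH) removes part of the liver, and the remnant regrows; ATRi is an inhibitor of ATR, the kinase that responds to stalled replication forks, and was given 24 h after PH. At 3 months of age the groups were 7 mice before PH (0 h), 3 untreated mice at 48 h, 4 untreated mice at 72 h and 4 ATRi mice at 72 h. At 12 months they were 8 mice at 0 h, 3 untreated and 3 ATRi mice at 48 h, and 4 untreated and 4 ATRi mice at 72 h. The labels give no strain or sex. The titles of 3 of the 7 mice at 0 h at 3 months name the mouse wt1, wt2 or wt3 and not by a plain number. What wt stands for is not stated, and no other title names a genotype. By mouse number, all 4 mice of each 12-month group at 72 h were also among the 8 sampled at 0 h, and so were 2 of 4 in each 3-month group at 72 h.

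Interferons bind receptors that activate JAK kinases, which phosphorylate STAT proteins. With IRF9 these form a complex that binds a DNA element, the interferon-stimulated response element (ISRE), upstream of target genes, while STAT dimers bind the gamma-activated site (GAS). Cytosolic RNA and DNA sensors such as RIG-I, MDA5 and ZBP1 start interferon production and are themselves targets, which closes a positive loop. In liver, hepatocytes, Kupffer cells and endothelial cells can all respond.

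By role the members were 7 nucleic acid sensors (Ddx58, Dhx58, Ifih1, Zbp1, Ifi203, Ifi204, Ifi205), 8 transcription factors (among them Stat2, Irf1, Irf2, Irf4, Irf5 and Irf8), the ubiquitin-like modifier Isg15 with its protease Usp18, and 5 Ifit genes (Ifit1, Ifit1bl2, Ifit2, Ifit3, Ifit3b). There were 8 oligoadenylate synthetase genes (Oas1a, Oas1c, Oas1g, Oas1h, Oas2, Oas3, Oasl1, Oasl2), the neighbours Rsad2 and Cmpk2, 10 guanylate-binding protein genes (Gbp2, Gbp2b, Gbp3, Gbp4, Gbp5, Gbp6, Gbp7, Gbp8, Gbp9, Gbp10), 4 immunity-related GTPase (IRG) genes (Igtp, Iigp1, Irgm1, Irgm2) and 3 Parp genes (Parp10, Parp12, Parp14). The 3 Ifitm genes (Ifitm1, Ifitm3, Ifitm10) and 6 other induced genes (Ifi27, Ifi27l2b, Ifi44, Isg20, Rtp4, Xaf1) were matched too. Irf2bp2 and Irf2bpl came in by name only: they encode IRF2-binding proteins and are not interferon-stimulated genes. Mx1 and Mx2 were not analysed here. The table's entry joining Dtx3l and Parp9 does not start with a member's name and stayed out. Neighbouring copies (Ifit3 and Ifit3b, Oas1a and Oas1g, Igtp and Irgm2, and the Gbp genes on chromosomes 3 and 5) may share reads, so their values may not be separate.

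A few promoters are shown, most of them chosen because they hold the response element. Promoter windows from RefSeq (assembly GRCm38.p6) were matched by symbol for 42 of the 60 members. The 250 bases before each start were searched on both strands for the ISRE letters, GAAA and GAAA with any 2 letters between them. These letters stood in 22 of the 42 members (52.4%), against 3.36% of the 8236 measured genes with a window and 2.98% of all 32851 windows. The 22 are not all separate promoters. The windows of Ifit1 and Ifit1bl2 overlap on opposite strands and hold the same 2 matches, and those of Ifit3 and Ifit3b and of Oas1a and Oas1g are near copies. The longer form, with CT after the second GAAA, stood in 12 members (28.6%, against 0.46% of measured genes). The GAS letters TTCNNNGAA stood in 10 members (23.8%, against 7.54%). Below, each promoter runs 5′ to 3′ on its gene's strand and ends at the base before the RefSeq start. A second RefSeq start of Gbp3 has no match and is not shown. Capitals mark the ISRE letters, or their reverse complement where the element lies on the opposite strand, with overlapping matches as 1 run. Isg15 is on chr4:156200819-156200938 (minus strand), Ifit1 on chr19:34640769-34640888 (plus), Ifit3 on chr19:34583349-34583528 (plus), Rsad2 on chr12:26456453-26456632 (minus), Oas1a on chr5:120907526-120907645 (minus), Oas1g on chr5:120887614-120887733 (minus), Gbp3 on chr3:142559924-142560043 (plus), Irgm1 on chr11:48871421-48871540 (minus) and Irf2 on chr8:46739495-46739744 (plus). Irf5, on chr6:29526375-29526624 (plus), and Ifi44, on chr3:151749911-151750160 (minus), are shown as members with no match in this window: Irf5 fell in the 12-month ATRi mice at 72 h, and Ifi44 had some of the largest differences. Cmpk2, Ddx58, Ifih1, Oasl2 and Xaf1 had no match either and are not shown.
Isg15: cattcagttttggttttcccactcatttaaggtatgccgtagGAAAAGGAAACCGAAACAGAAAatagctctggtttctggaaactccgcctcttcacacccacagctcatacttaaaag
Ifit1: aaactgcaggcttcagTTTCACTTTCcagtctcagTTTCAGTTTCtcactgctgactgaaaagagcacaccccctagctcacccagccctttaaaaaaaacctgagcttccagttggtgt
Ifit3: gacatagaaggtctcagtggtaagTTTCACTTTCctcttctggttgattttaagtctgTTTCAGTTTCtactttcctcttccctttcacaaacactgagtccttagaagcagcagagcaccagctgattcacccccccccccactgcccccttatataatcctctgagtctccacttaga
Rsad2: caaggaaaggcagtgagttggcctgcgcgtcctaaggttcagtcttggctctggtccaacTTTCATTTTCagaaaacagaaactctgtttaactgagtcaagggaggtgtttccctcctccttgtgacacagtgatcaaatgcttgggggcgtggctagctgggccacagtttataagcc
Oas1a: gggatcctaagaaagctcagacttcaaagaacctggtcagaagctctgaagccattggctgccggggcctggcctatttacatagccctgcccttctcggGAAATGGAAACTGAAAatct
Oas1g: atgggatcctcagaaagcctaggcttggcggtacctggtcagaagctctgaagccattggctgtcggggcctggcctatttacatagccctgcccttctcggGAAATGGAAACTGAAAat
Gbp3: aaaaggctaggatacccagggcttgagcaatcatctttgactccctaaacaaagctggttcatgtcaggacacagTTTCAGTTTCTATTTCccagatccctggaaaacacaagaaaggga
Irgm1: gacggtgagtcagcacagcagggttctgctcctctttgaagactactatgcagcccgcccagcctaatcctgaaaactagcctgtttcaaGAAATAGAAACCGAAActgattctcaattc
Irf2: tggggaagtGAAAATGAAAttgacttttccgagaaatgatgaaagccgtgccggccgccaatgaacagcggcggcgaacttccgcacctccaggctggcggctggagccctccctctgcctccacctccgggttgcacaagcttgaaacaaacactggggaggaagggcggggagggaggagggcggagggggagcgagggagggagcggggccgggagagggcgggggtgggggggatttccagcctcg
Irf5: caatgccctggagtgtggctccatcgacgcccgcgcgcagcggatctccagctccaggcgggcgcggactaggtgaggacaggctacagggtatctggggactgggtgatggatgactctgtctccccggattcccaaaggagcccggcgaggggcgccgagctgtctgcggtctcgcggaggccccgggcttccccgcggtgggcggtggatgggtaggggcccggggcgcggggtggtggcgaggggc
Ifi44: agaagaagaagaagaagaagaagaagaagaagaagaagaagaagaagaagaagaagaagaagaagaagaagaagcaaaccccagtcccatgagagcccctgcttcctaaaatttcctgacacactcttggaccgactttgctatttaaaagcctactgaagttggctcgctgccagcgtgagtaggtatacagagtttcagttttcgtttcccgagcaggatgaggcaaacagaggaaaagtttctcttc

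In Isg15 and Irgm1 overlapping copies of the element form 1 run, and Ifit1 and Ifit3 each hold a pair of separate copies. Oas1a and Oas1g carry the same run within nearly the same sequence, close to the start. By role, the letters stood in 5 of 5 Gbp genes with a window, 4 of 5 Ifit genes, 3 of 3 IRG genes, 4 of 7 Oas genes, 2 of 4 sensors and 2 of 6 transcription factors. They stood in 0 of 3 Ifitm genes and 0 of 3 of the other induced genes (Ifi44, Isg20, Xaf1). Only exact letters were counted. The Ifi44 window holds tttcagttttcgtttc and that of Xaf1 tttcagttttgttttc, which resemble the letters but miss their spacing, so no match does not mean no similar element. A match is a description of letters and not a bound site.

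The deposited values are log2 levels of a quantity named sigma. No source used here defines it or gives it per length, so levels are compared between groups and not between genes. For 8 groups there was 1 mean, and for 12-month ATRi mice at 72 h also the 4 livers (M545, M546, M547 and M548). Read depth is unknown. The deposited mean of that last group stands apart: its median over all genes was 2.856, against 2.629 to 2.739 in its own 4 livers and 2.633 to 2.719 in the other 8 means. Over the 60 members it lay above the mean of the 4 livers by a median of 0.154 (from −0.175 to 0.793), and over all genes by 0.088. For tests the livers were therefore shifted to their deposited mean gene by gene, and results with the livers as deposited are given where they differ. Summed marker levels are the log2 of levels added on the linear scale, so the highest gene weighs most. Measured hepatocyte markers (5 of 6) had 14.989 to 16.178 over the 9 means. Alb alone stood at 16.013 in untreated 12-month mice at 72 h, where that sum was highest. Kupffer cell and macrophage markers (9 of 13 measured) had 7.721 to 9.699; in such bulk samples fewer cells of a type and less RNA per cell cannot be told apart.

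A plot of the 9 group means shows where the families were high. The highest mean lay in untreated 12-month mice at 72 h for 33 of 60 members, against 4.19% of all genes, and in the ATRi mice of that age and time for another 13, a lower share than the 29.5% of all genes. The lowest mean lay in a 12-month group at 48 h, untreated or with ATRi, for 40 members (17.0% of all genes). In 3-month mice at 0 h 10 members had their highest mean (18.5% of all genes), among them Irf5 and Irf2bp2. Relative to 0 h of the same age, the members' median difference was −0.27 at 48 h and −0.036 at 72 h at 3 months, and −0.352 and 0.718 at 12 months; the median over all genes lay between −0.092 and −0.017 in these 4 comparisons.

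**Figure D1:**
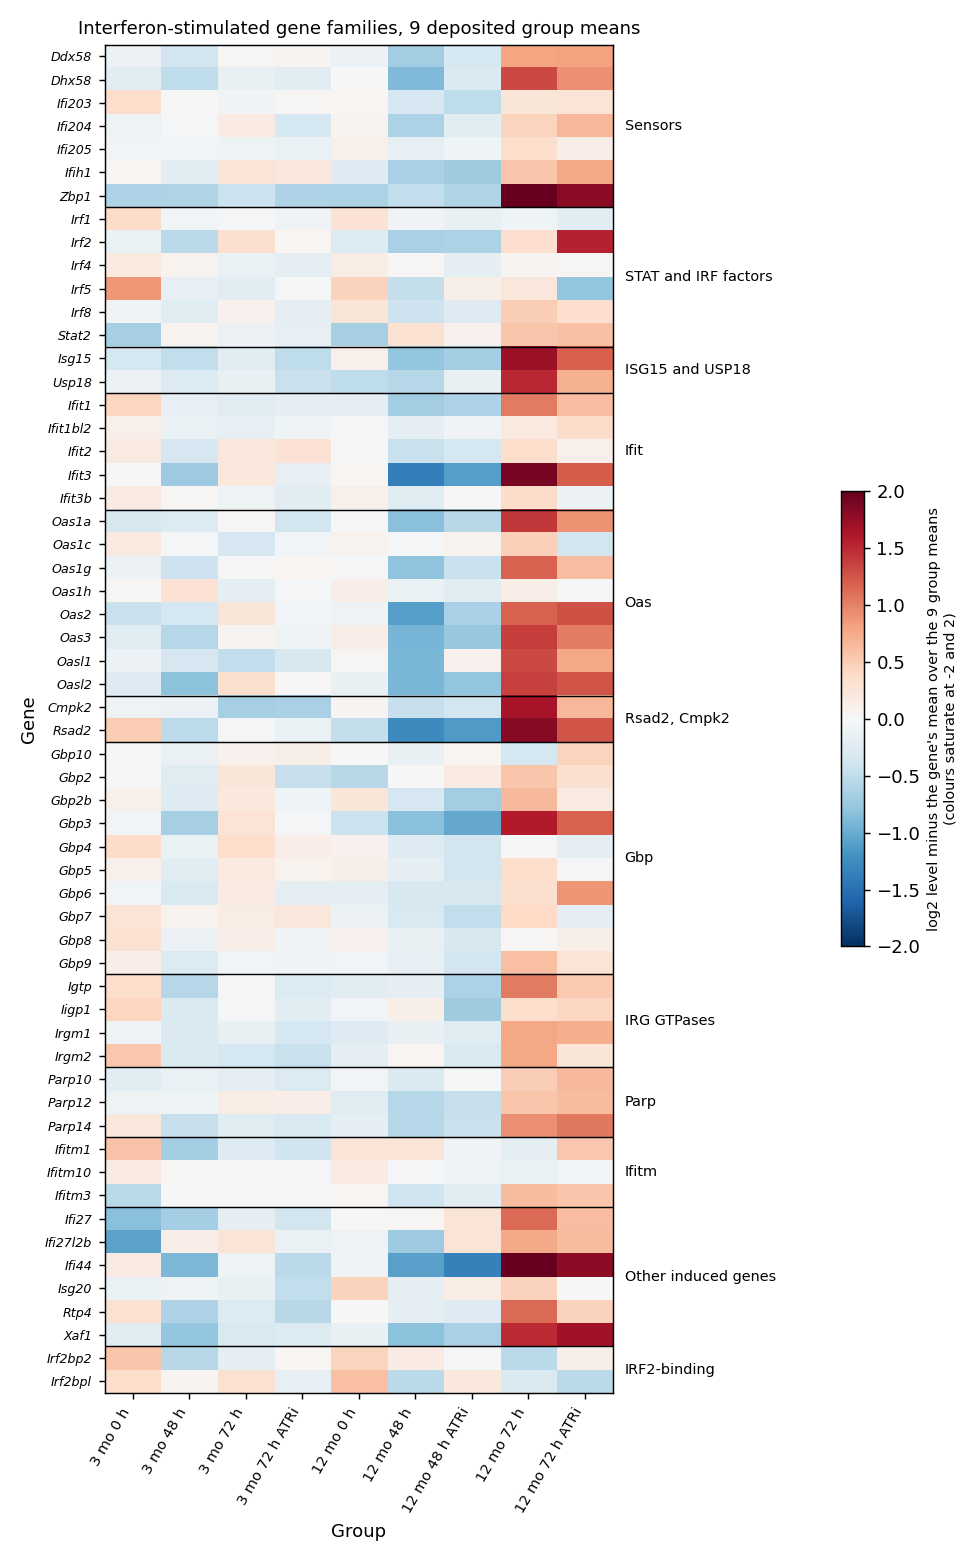
Heat map of the members reported by name (rows, ordered by role) in the 9 deposited group means (columns). Colour is the log2 level minus the gene's own mean over the 9 groups, red for higher and blue for lower; the deepest red lies in the 2 columns of 12-month mice at 72 h, and 33 of the 60 members have their highest mean in the untreated one.

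**Figure D2:**
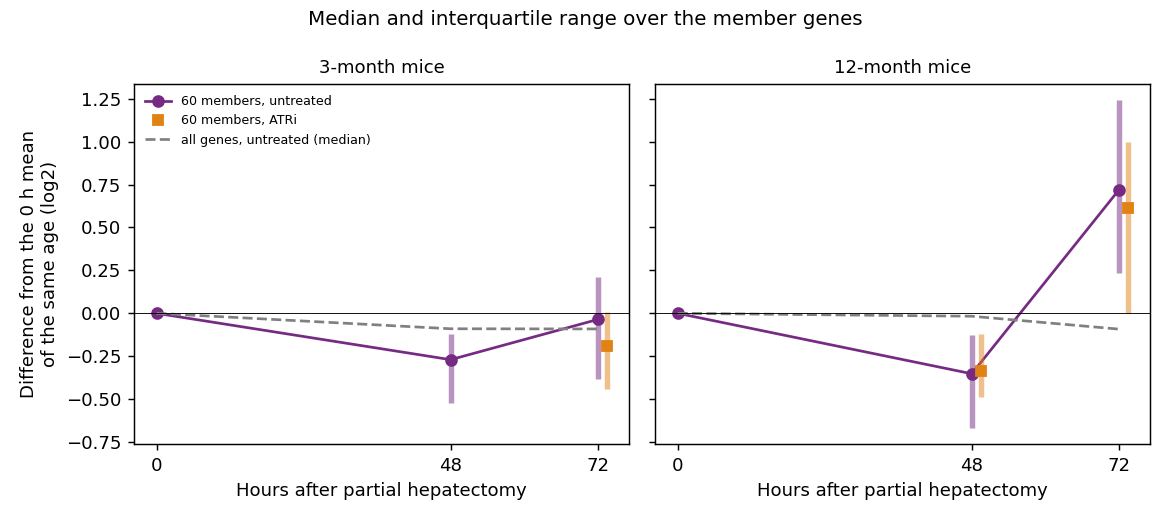
Median over the 60 members (points) and interquartile range (bars) of the log2 difference from the 0 h mean of the same age, against hours after PH, for untreated mice (line), ATRi mice (squares, drawn slightly to the right) and the median of all genes in untreated mice (dashed). The 12-month median was −0.352 at 48 h and 0.718 at 72 h; at 3 months it was −0.036 at 72 h. The bars show spread over genes, not over mice.

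Levels of single members are given by role, in the order 0 h, 48 h, 72 h and 72 h with ATRi at 3 months, then 0 h, 48 h, 48 h with ATRi, 72 h and 72 h with ATRi at 12 months, then livers M545, M546, M547 and M548. All are log2 levels. Zbp1, a sensor of Z-form nucleic acid that can trigger necroptosis (chromosome 2, 173206612 to 173218923), had means of 3.84, 3.86, 4.04 and 3.85 at 3 months and 3.83, 3.98, 3.87, 6.64 and 6.28 at 12 months, and 5.78, 6.04, 6.94 and 5.45 in the livers. The 7 means other than those of 12-month mice at 72 h lay close together, and all 4 livers lay above every one of them. Dhx58, which encodes the RIG-I-like receptor LGP2, had means of 4.23, 3.94, 4.30 and 4.24 at 3 months and 4.45, 3.56, 4.15, 5.77 and 5.36 at 12 months, and 4.52, 5.16, 6.10 and 4.36 in the livers. Here M545 and M548 lay near the 0 h mean of their age and M547 above the untreated 72 h mean. The RNA sensors Ddx58 (RIG-I) and Ifih1 (MDA5) had untreated 12-month means at 72 h of 4.93 and 5.11, above 4.03 and 4.31 at 0 h.

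Among the transcription factors Stat2, a subunit of the ISRE-binding complex, had means of 5.67, 6.40, 6.22 and 6.17 at 3 months and 5.67, 6.63, 6.42, 6.89 and 6.93 at 12 months, and 6.83, 7.39, 6.71 and 6.97 in the livers. It was lowest at 0 h at both ages and higher in every group after PH. Irf2, a factor that competes with IRF1 for the ISRE, had means of 2.87, 2.47, 3.32 and 3.05 at 3 months and 2.74, 2.36, 2.38, 3.35 and 4.54 at 12 months, and 4.55, 3.75, 4.77 and 4.78 in the livers; its highest mean was that of 12-month ATRi mice at 72 h. Irf5, a factor downstream of Toll-like receptors, had means of 4.54, 3.51, 3.47 and 3.65 at 3 months and 4.14, 3.21, 3.79, 3.91 and 2.90 at 12 months, and 2.70, 3.23, 2.63 and 2.94 in the livers. Its highest means were the 0 h means of both ages, and all 4 livers lay below the other 8 means or, for M546, below all but the untreated 48 h mean of its age.

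Isg15, whose product is attached to other proteins, had means of 2.68, 2.53, 2.79 and 2.53 at 3 months and 3.13, 2.25, 2.35, 4.76 and 4.22 at 12 months, and 2.49, 3.68, 5.32 and 2.92 in the livers. Usp18, the protease that removes ISG15 and damps receptor signalling, had means of 3.93, 3.78, 3.91 and 3.61 at 3 months and 3.54, 3.49, 3.90, 5.55 and 4.76 at 12 months, and 3.47, 4.75, 5.85 and 3.01 in the livers. In both genes M547 lay above the untreated 72 h mean, and M545 and M548 below the 0 h mean. Ifit genes encode proteins that bind viral RNA. Ifit3 had means of 4.0, 3.28, 4.21 and 3.84 at 3 months and 4.05, 2.65, 2.91, 5.90 and 5.22 at 12 months, and 2.94, 4.78, 6.36 and 4.78 in the livers. Ifit1 had means of 1.65, 1.05, 1.01 and 1.02 at 3 months and 1.03, 0.53, 0.60, 2.25 and 1.84 at 12 months, and 1.07, 1.48, 2.92 and 1.23 in the livers. Ifit3 had the lowest 12-month means at 48 h relative to 0 h of the family, and its livers covered more than 3 log2 units.

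Oas enzymes make the second messenger that activates RNase L. Oas2 had means of 2.73, 2.81, 3.42 and 3.11 at 3 months and 3.07, 2.07, 2.52, 4.35 and 4.44 at 12 months, and 3.57, 4.53, 4.13 and 4.45 in the livers. Oas3 had means of 1.42, 1.09, 1.72 and 1.58 at 3 months and 1.80, 0.74, 0.91, 3.04 and 2.69 at 12 months, and 1.69, 2.57, 2.92 and 2.39 in the livers. The 4 livers of Oas2 all lay above the 12-month 0 h mean, while M545 lay slightly below it for Oas3. Oasl2, an enzymatically active mouse OAS-like protein, had means of 3.23, 2.67, 3.81 and 3.47 at 3 months and 3.33, 2.57, 2.69, 4.86 and 4.74 at 12 months, and 3.81, 4.36, 5.76 and 3.66 in the livers. Rsad2 encodes viperin, which makes a chain-terminating nucleotide, and Cmpk2 a mitochondrial nucleotide kinase. Rsad2 had means of 4.81, 3.78, 4.28 and 4.18 at 3 months and 3.83, 3.03, 3.18, 6.13 and 5.56 at 12 months, and 4.31, 4.63, 6.79 and 3.35 in the livers. Cmpk2 had means of 3.65, 3.62, 3.07 and 3.09 at 3 months and 3.79, 3.28, 3.37, 5.39 and 4.40 at 12 months, and 3.04, 4.07, 5.64 and 3.36 in the livers. For both, M547 was the only liver above the untreated 72 h mean and M548 lay below the 0 h mean, as did M545 for Cmpk2.

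Gbp proteins coat intracellular pathogens and their vacuoles. Gbp3 had means of 3.77, 3.16, 4.08 and 3.78 at 3 months and 3.39, 2.98, 2.80, 5.40 and 5.0 at 12 months, and 3.86, 4.72, 6.07 and 3.54 in the livers. Gbp2b had means of 1.70, 1.33, 1.81 and 1.51 at 3 months and 1.83, 1.26, 0.90, 2.24 and 1.76 at 12 months, and 0.90, 1.80, 2.29 and 1.47 in the livers. Gbp6, near the tables' lowest values in some groups, had means of 0.53, 0.28, 0.75 and 0.40 at 3 months and 0.39, 0.26, 0.26, 0.90 and 1.46 at 12 months, and 0.55, 1.89, 1.86 and 1.78 in the livers. Gbp3 had the widest range of the family, and its highest mean was the untreated 12-month mean at 72 h. IRG GTPases act on the same vacuoles. Igtp (Irgm3) had means of 4.58, 3.66, 4.18 and 3.96 at 3 months and 4.02, 4.04, 3.59, 5.27 and 4.75 at 12 months, and 3.41, 4.91, 5.46 and 4.19 in the livers. Irgm2 had means of 6.12, 5.30, 5.23 and 5.14 at 3 months and 5.40, 5.62, 5.27, 6.36 and 5.82 at 12 months, and 5.22, 6.15, 6.29 and 5.51 in the livers. Both also had a high 3-month mean at 0 h, of 4.58 and 6.12, so that their untreated 12-month mean at 72 h was less far above it.

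Parp14 and Parp12 encode mono-ADP-ribosyltransferases. Parp14 had means of 4.67, 3.98, 4.20 and 4.15 at 3 months and 4.27, 3.88, 4.0, 5.35 and 5.50 at 12 months, and 5.08, 5.21, 6.07 and 4.60 in the livers. Parp12 had means of 4.51, 4.52, 4.76 and 4.75 at 3 months and 4.38, 4.05, 4.15, 5.16 and 5.25 at 12 months, and 4.92, 4.88, 5.70 and 4.31 in the livers. All 4 livers lay above the 0 h mean of their age for Parp14, and 3 of 4 for Parp12. Ifitm proteins sit in membranes and block virus entry. Ifitm1 had means of 2.21, 0.96, 1.38 and 1.25 at 3 months and 1.90, 1.90, 1.57, 1.44 and 2.18 at 12 months, and 1.38, 2.13, 2.69 and 2.43 in the livers. Ifitm3 had means of 8.03, 8.56, 8.55 and 8.54 at 3 months and 8.61, 8.17, 8.34, 9.21 and 9.13 at 12 months, and 8.84, 8.94, 9.26 and 8.85 in the livers. Ifitm1 did not share the 72 h course: its untreated 12-month mean was lower at 72 h than at 0 h.

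Ifi44, an interferon-induced cytoplasmic protein gene, had means of 3.42, 2.36, 3.15 and 2.71 at 3 months and 3.18, 2.16, 1.89, 5.35 and 5.04 at 12 months, and 3.98, 4.10, 6.14 and 2.89 in the livers. Xaf1, a partner of the apoptosis inhibitor XIAP, had means of 3.16, 2.61, 3.08 and 3.10 at 3 months and 3.23, 2.56, 2.73, 4.86 and 5.06 at 12 months, and 3.60, 5.07, 5.95 and 4.39 in the livers. Ifi44 was lowest in 12-month mice at 48 h, and only M548 lay below the 0 h mean. The IRF2-binding genes went another way. Irf2bp2 had means of 7.46, 6.34, 6.72 and 6.94 at 3 months and 7.34, 7.06, 6.86, 6.36 and 7.01 at 12 months, and 6.84, 6.77, 6.98 and 7.13 in the livers. Irf2bpl had means of 2.20, 1.91, 2.15 and 1.69 at 3 months and 2.46, 1.32, 2.07, 1.56 and 1.32 at 12 months, and 0.95, 1.19, 1.35 and 1.60 in the livers. All 4 livers of both genes lay below the 12-month mean at 0 h.

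Before PH, few members differed with age. For reading the counts by direction, the share of all genes with a difference above 0 was 38.4% to 57.6% over the comparisons below. At 0 h, 0 members were higher and 0 lower by 1 or more at 12 than at 3 months, where 0.872% of all genes were higher and 0.396% lower; in comparisons of 2 deposited means this difference of 1 log2 unit served as the threshold, without a test. The largest values were 0.97 for Ifi27l2b and 0.83 for Ifi27, and −0.98 for Rsad2. The members' median was −0.074 (all genes −0.053). All 4 IRG genes were lower at 12 months (median −0.513), and 7 of 8 Oas genes higher (0.121). With a spread borrowed from the 4 livers in limma, 3 members were higher (Ifitm3, Ifi27 and Ifi27l2b; 2.45% of all genes) and 0 lower (2.38%), with 9 members at an unadjusted p under 0.05 (23.1% of all genes).

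At 48 h, when levels were compared with 0 h, most members were lower at both ages. At 3 months 48 of 60 were below 0 h, 5 by 1 or more (2.67% of all genes): Ifitm1 (−1.25), Irf2bp2 (−1.12), Ifi44 (−1.06), Rsad2 (−1.03) and Irf5 (−1.03). Ifi27l2b was higher by 1.20, the 1 member past the threshold upward (3.76% of all genes). All 10 Gbp genes (median −0.349), all 5 Ifit genes (−0.517) and all 4 IRG genes (−0.767) were lower. At 12 months 50 of 60 were below 0 h and 10 above (16.7%, against 48.1% of all genes). By 1 or more, 5 were lower (1.85% of all genes): Ifit3 (−1.41), Irf2bpl (−1.14), Oas3 (−1.06), Ifi44 (−1.02) and Oas2 (−1.0), and 0 were higher (3.26%). All 8 Oas genes were lower (median −0.81), while all 4 IRG genes lay just above 0 h (0.143). Stat2 differed by 0.73 at 3 and 0.96 at 12 months. Centred on the median of all genes, 2 rather than 5 members were lower at 3 months. On the spread of the 4 livers limma called 3 members higher (6.49% of all genes) and 4 lower (7.06%) at 3 months, and 1 higher (5.46%) and 2 lower (4.7%) at 12 months. Macrophage markers were lower at 12 months too (9 of 9, median −0.889, 4 by 1 or more), and 4 of 9 were higher at 3 months (median −0.203). At 12 months neutrophil markers were lower in 7 of 7 (−0.588, 3 by 1 or more). At 3 months markers of sinusoidal endothelial cells (7 of 7, −0.387, 2 by 1 or more), T and NK cells (7 of 7, −0.516) and B and plasma cells (4 of 4, −0.526, 1 by 1 or more) were lower. Most of these were lower at 12 months too: 6 of 7 (−0.333), 6 of 7 (−0.307) and 4 of 4 (−0.484), with 0 by 1 or more. Their part in these differences was not tested.

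Between the ages at 48 h, 0 members were higher and 0 lower by 1 or more (0.782% and 0.576% of all genes), with 45 of 60 lower at 12 months and a median of −0.12. Oas genes had a median of −0.402 and IRG genes of 0.350. With the borrowed spread limma called 0 members in either direction (0.0719% and 0.054% of all genes), and 8 had an unadjusted p under 0.05 (8.66% of all genes).

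From 48 to 72 h the means of most members went up, by more at 12 than at 3 months; the difference between the ages in this step was not tested. At 3 months 42 of 60 members were higher at 72 h, but only Oasl2 by 1 or more (1.14; 1.61% of all genes), and 0 were lower (3.04%). The median was 0.242, and all 10 Gbp genes were higher (0.438). With the borrowed spread limma called 0 members (1.39% of all genes higher, 4.4% lower), and 5 had an unadjusted p under 0.05 (25.6% of all genes). In untreated 12-month mice 54 of 60 were higher at 72 h, 28 of them by 1 or more (46.7%, against 3.32% of all genes), and 0 were lower by 1 or more (1.89%). The largest were Ifit3 (3.25), Ifi44 (3.19), Rsad2 (3.09) and Zbp1 (2.66). Of the sensors 7 of 7 were higher and 5 by 1 or more (median 1.195), of the Oas genes 8 and 6 (2.240), of the other induced genes 6 and 5 (1.412), of the Parp genes 3 and 2 (1.114) and of the Ifit genes 5 and 2 (0.789). Isg15, Usp18, Rsad2 and Cmpk2 all exceeded 2. The Gbp genes were higher in 9 of 10 but only Gbp3 by 1 or more (2.43; family median 0.595), and the 3 Ifitm genes had a median of −0.108. With the borrowed spread limma called 9 members higher (2.94% of all genes) and 1 lower (4.25%): Dhx58, Zbp1, Oas1a, Oas1g, Oas2, Oas3, Ifitm3, Ifi27 and Ifi27l2b higher, Irf2bp2 lower.

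**Figure D3:**
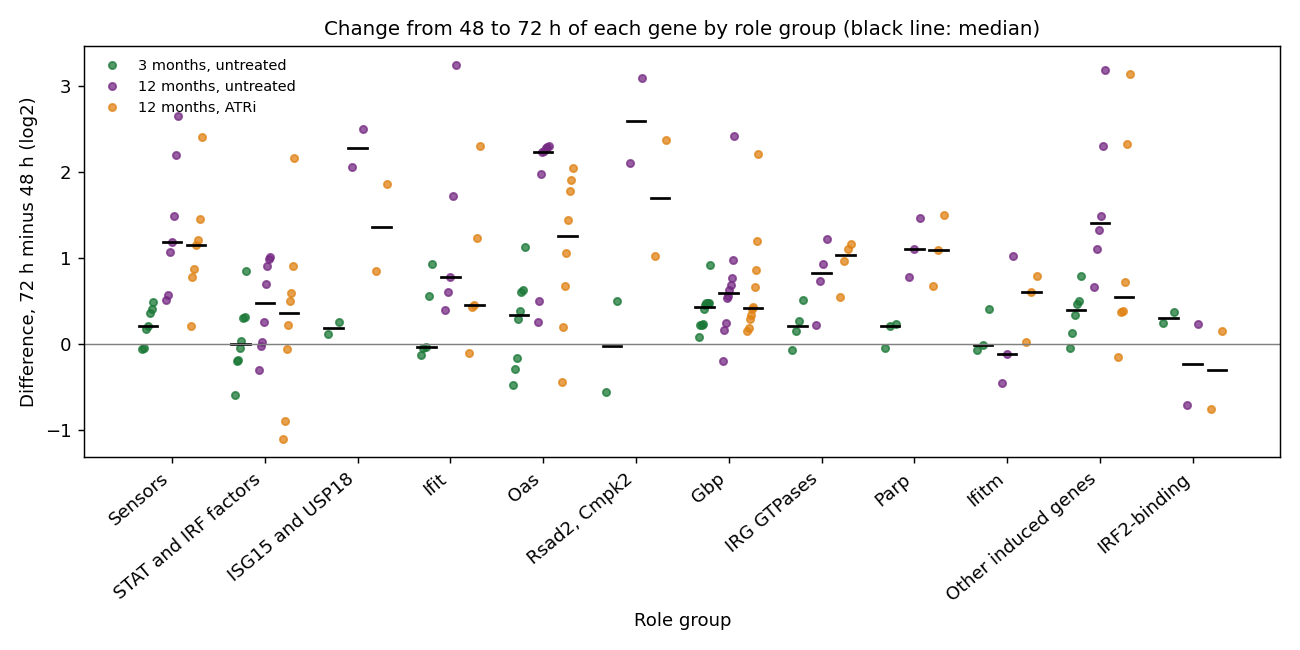
Log2 difference between 72 and 48 h of each member (points), by role group, for untreated 3-month mice (green), untreated 12-month mice (purple) and 12-month ATRi mice (orange); black lines are group medians. The purple points of Oas genes have a median of 2.240 and run from 0.263 to 2.303, with 6 of 8 at 1 or more. All green points lie between −0.587 and 1.136.

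At 72 h the 3-month means lay near those of 0 h: 27 of 60 members were above 0 h, with Ifi27l2b higher by 1.33 (2.46% of all genes higher by 1 or more) and Irf5 lower by 1.08 (2.02% lower). Centred on all genes, 1 was higher and 0 lower, and the median turned from −0.036 to 0.055. In limma, with that spread, 3 were called higher (4.63% of all genes) and 3 lower (10.5%). In untreated 12-month mice 47 of 60 were above 0 h, 25 by 1 or more (41.7%, against 2.92% of all genes), and 0 were below by that much (1.01%). The largest were Zbp1 (2.81), Rsad2 (2.30), Ifi44 (2.17) and Gbp3 (2.02). All 7 sensors were higher (median 0.806), 7 of 8 Oas genes (1.263, 6 by 1 or more) and all 4 IRG genes (1.0). The transcription factors were split, with 4 of 8 higher (0.075) and Stat2 at 1.22. Irf2bp2 and Irf2bpl were lower (−0.99 and −0.90). The borrowed spread gave 11 members higher (4.51% of all genes) and 3 lower (8.3%); it treats mice measured at both times as independent.

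At 72 h the untreated ages differed in the same direction for most members. Of the 60, 53 were higher at 12 than at 3 months, 21 by 1 or more (35.0%, against 1.97% of all genes), and 0 were lower by 1 or more (0.773%). Zbp1 (2.60), Cmpk2 (2.32), Ifi44 (2.20) and Isg15 (1.96) had the largest differences. All 8 Oas genes were higher (median 1.128), all 7 sensors (0.461), all 4 IRG genes (1.001) and all 5 Ifit genes (0.460), but 7 of 10 Gbp genes (0.207). Only Zbp1 and Ifi27 passed in limma with the borrowed spread (1.12% of all genes higher, 0.746% lower), and 32 members had an unadjusted p under 0.05 (19.7% of all genes). Because both groups are single means, the spread between mice of each age is not known.

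Markers of other cells moved between the same groups. From 48 to 72 h in untreated 12-month mice, 9 of 9 macrophage markers were higher, 8 by 1 or more (median 2.064), and 6 of 7 neutrophil markers (1.838). Between the ages at 72 h the medians were 0.943 for macrophage and 1.552 for neutrophil markers. The ages already differed in both at 0 h. There macrophage markers were higher at 12 months in 9 of 9 (0.584, 2 by 1 or more) and neutrophil markers in 6 of 7 (0.998, 3 by 1 or more). Hepatocyte markers at 72 h were lower at 12 than at 3 months in 4 of 5 (−0.435, 0 by 1 or more). In untreated mice the summed macrophage level was 7.721 at 48 h and 9.699 at 72 h at 12 months, and 8.059 and 8.301 at 3 months. That of neutrophils was 3.637 and 6.429 at 12 months, and 3.694 and 3.795 at 3 months. Between 0 and 72 h at 12 months, 8 of 9 macrophage markers were higher (median 0.672, 2 by 1 or more) and 5 of 7 neutrophil markers (0.914, 3 by 1 or more). Of the 7 neutrophil markers 1 or 2 were at a table's lowest value in every mean but those of 12-month mice at 72 h. No measured macrophage marker was at a table's lowest value. Measured markers of plasmacytoid dendritic cells (5 of 6, including the member Irf8) had a summed level of 3.374 to 3.870, those of T and NK cells (7 of 10) 3.372 to 3.934. The part of these cells in the members' differences was not tested.

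With ATRi few members differed at 48 h in 12-month mice. Oasl1, an OAS-like gene, was higher than in untreated mice by 1.01, the 1 member past the threshold (0.324% of all genes), and 0 were lower (0.252%); the median was 0.095. All 4 IRG genes were lower (median −0.400) and all 5 Ifit genes slightly higher (0.123). At 72 h in 3-month mice 0 members were higher and 0 lower by 1 or more (0.054% and 0.126% of all genes), 43 of 60 were lower and the median was −0.103. The largest member difference was −0.72, in Gbp2. At 72 h in 3-month mice macrophage markers were lower in 8 of 9 (median −0.269) and T and NK cell markers in 7 of 7 (−0.113). B and plasma cell markers were higher in 3 of 4 (0.059). The part of these cells was not tested. With the borrowed spread limma called 0 members in both comparisons (0.0% of all genes higher at either, 0.018% lower at 48 h and 0.00899% at 72 h), and 5 and 1 members had an unadjusted p under 0.05 (6.44% and 5.08% of all genes).

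In 12-month mice at 72 h, where limma could use the 4 ATRi livers, 41 of 60 members were lower with ATRi than without, with a median of −0.237 (all genes 0.08). In limma 4 members passed an adjusted p under 0.05, and 8 had an unadjusted p under 0.05 (34.3% of all genes). Irf2 rose by 1.19 (SE 0.28, adjusted p = 0.0471) and Irf2bp2 by 0.66 (SE 0.13, adjusted p = 0.0434), 2 members where 9.04% of all genes passed. Irf5 fell by 1.01 (SE 0.21, adjusted p = 0.0434) and Oas1c by 0.84 (SE 0.20, adjusted p = 0.0481), 2 members where 2.38% passed. All 4 livers lay above the untreated mean of 3.35 for Irf2 (4.46 ± 0.48, SD, n = 4) and below that of 3.91 for Irf5 (2.87 ± 0.27). By size, 1 member was higher by 1 or more (7.55% of all genes) and 1 lower (0.836%). Other members gave values short of the test in both directions, among them Cmpk2 (−1.0), Usp18 (−0.80), Ifit3 (−0.68), Isg15 (−0.53), Xaf1 (0.19), Parp14 (0.15) and Oas2 (0.09). With the livers as deposited, or without M545, M547 or M548, 0 members passed in either direction. Centred on all genes, 0 passed upward and 1 downward. Without 1 liver the median ran from −0.466 (without M547) to −0.112 (without M545). Tlr9 (−0.96, adjusted p = 0.0452), a DNA-sensing receptor of immune cells, fell as well. Macrophage markers were lower with ATRi in 7 of 9 (median −0.28, 1 passed) and B and plasma cell markers in 3 of 4 (−0.511, 1 passed). Neutrophil markers were higher in 6 of 7 (0.514, 0 passed). The part of these cells was not tested.

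The 4 livers differed widely in these families. M547 was the highest liver for 45 of 60 members (18.9% of all genes) and M545 for 0 (30.2%); M545 was the lowest for 29 (23.3%) and M548 for 18 (22.5%). The range over the livers was 1 or more for 37 members (16.7% of all genes). The median SD was 0.548 over members and 0.233 over all genes, from 0.052 for Irf4 to 1.45 for Rsad2. Relative to the 12-month 0 h mean, the members' median was −0.029 in M545, 0.448 in M546, 1.055 in M547 and 0.093 in M548, with an SD of 0.486 (n = 4). Relative to untreated mice at 72 h it was −0.763, −0.281, 0.3 and −0.615. M547 lay above the untreated 72 h mean for 43 of 60 members, the other livers for 7, 15 and 16. Thus the members' median was above the untreated mean in 1 ATRi liver and below it in 3. Relative to the deposited mean of the ATRi livers themselves it was −0.461, −0.123, 0.456 and −0.296. The livers thus spread around their own mean too, and the part of ATRi in the split was not tested. The spread ran through most role groups: M547 was highest for 6 of 7 sensors, 5 of 5 Ifit genes, 6 of 8 Oas genes, 8 of 10 Gbp genes, 4 of 4 IRG genes and 3 of 3 Parp genes, but for 3 of 8 transcription factors. The summed macrophage level was 10.057 in M545, 9.130 in M546, 9.353 in M547 and 9.282 in M548. Neutrophil markers summed to 6.034, 7.611, 6.171 and 6.541, and those of sinusoidal endothelial cells to 5.956, 7.043, 6.733 and 6.910. The part of these cells in the spread was not tested.

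**Figure D4:**
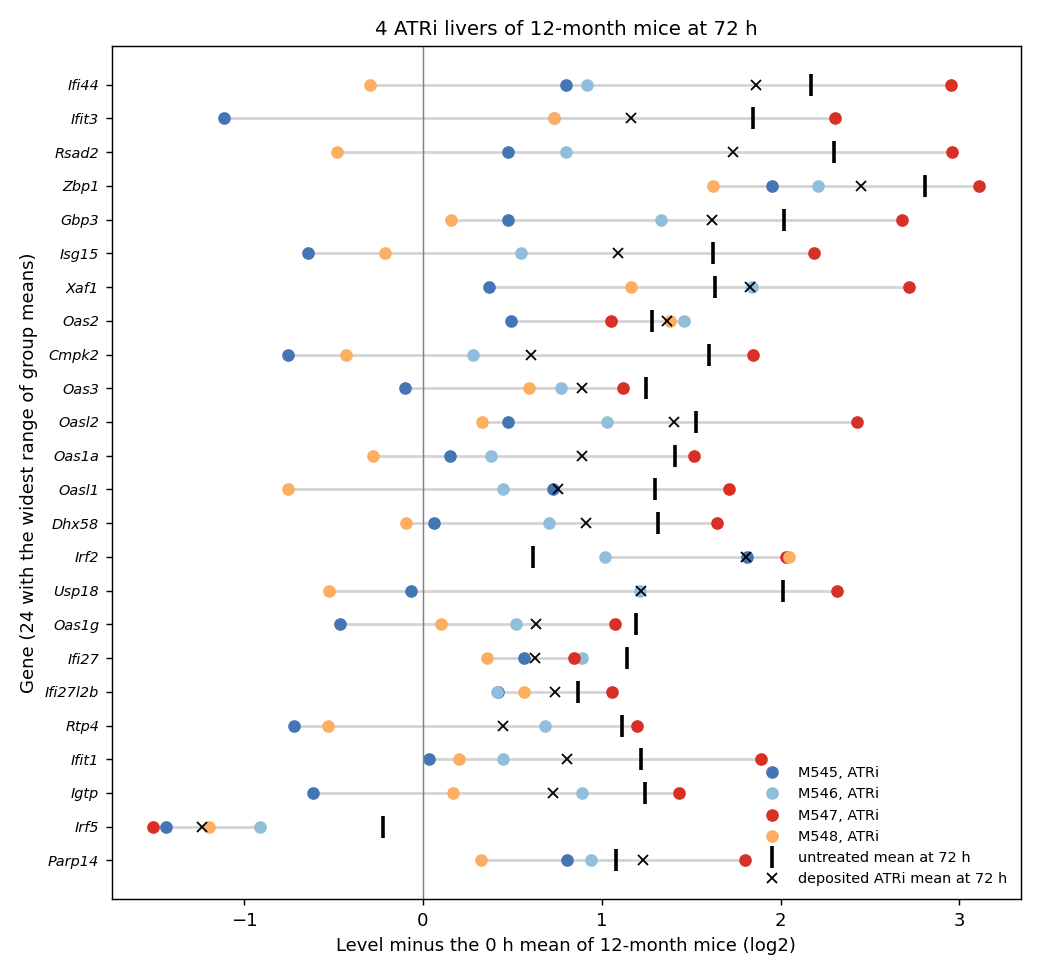
Log2 level minus the 12-month 0 h mean for the 24 interferon-stimulated members with the widest range of group means, in the 4 ATRi livers at 72 h (coloured points), with the untreated 72 h mean (bar) and the deposited ATRi mean (cross). M547 is rightmost for most genes, often beyond the bar; Irf5 lies left of 0 in all 4 livers.

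In 12-month ATRi mice 53 of 60 members were higher at 72 than at 48 h, with a median of 0.752. In limma 19 passed upward (31.7%, against 19.4% of all genes) and 3 downward (17.8% of all genes). Ifi44 rose by 3.15 (SE 0.72, adjusted p = 0.0179), Zbp1 by 2.41 (SE 0.36, adjusted p = 0.0059), Xaf1 by 2.33 (SE 0.55, adjusted p = 0.0190) and Gbp3 by 2.21 (SE 0.61, adjusted p = 0.0315). Irf2, Oasl2, Oas2, Oas3, Parp14, Ifih1, Oas1a, Gbp6, Ddx58, Iigp1, Parp12, Ifitm3, Ifi203, Parp10 and Gbp8 rose too, by 2.16 down to 0.44. Irf5 (−0.89) and Irf2bpl (−0.75) were among the 3 that fell. Isg15, Usp18, Rsad2, Cmpk2 and Ifit3 did not pass, with differences of 0.85 to 2.38. All 4 livers lay above the 48 h ATRi mean for 36 of 60 members (32.6% of all genes). By size, 23 members were higher by 1 or more (12.7% of all genes). Without M546 13 members passed upward, without M547 1 passed downward, and with the livers as deposited 15 passed upward and 3 downward. Of the macrophage markers 8 of 9 rose (median 1.480), and of the neutrophil markers 6 of 7 (2.44). Their part was not tested.

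Against 0 h, 45 of 60 members were higher at 72 h with ATRi at 12 months (median 0.616, and 0.373 without M547); 19 passed upward (25.6% of all genes) and 7 downward (22.5%). Zbp1 rose by 2.45 (SE 0.29, adjusted p = 0.0017), Ifi44 by 1.86 (SE 0.58, adjusted p = 0.0377), Xaf1 by 1.83 (SE 0.44, adjusted p = 0.0152) and Irf2 by 1.81 (SE 0.24, adjusted p = 0.0024). Gbp3, Oasl2, Oas2, Stat2, Parp14, Gbp6, Ifih1, Irgm1, Ddx58, Oas3, Parp12, Ifi27l2b, Parp10, Ifi27 and Ifitm3 rose by 1.62 down to 0.52. Irf5 fell by 1.23 (SE 0.18, adjusted p = 0.0028) and Irf2bpl by 1.14 (SE 0.16, adjusted p = 0.0025), and smaller falls included Irf1, Irf2bp2, Gbp4 and Ifitm10. As shares these are 31.7% and 11.7% of the members, so the upward count is not far from the background. Centred on all genes 19 rose and 3 fell; with the livers as deposited 13 rose and 5 fell; without M546 12 rose. Falls numbered 2 without M545, 3 without M547 and 4 without M548. The fit treats the mice sampled at both times as independent. Of the neutrophil markers 4 of 7 rose (median 1.49), and of the macrophage markers 5 of 9 rose and 1 fell (0.455). Their part was not tested.

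Under ATRi the ages differed at 72 h as well. Of the 60, 50 were higher at 12 months, with a median of 0.754 (0.5 without M547); 12 passed upward (18.3% of all genes) and 1 downward (9.96%), so the upward count is near the background. Zbp1 was higher by 2.42 (SE 0.34, adjusted p = 0.0085), Ifi44 by 2.33 (SE 0.67, adjusted p = 0.0442), Xaf1 by 1.96 (SE 0.51, adjusted p = 0.0328) and Irf2 by 1.49 (SE 0.28, adjusted p = 0.0143). Parp14, Oas2, Oas3, Ifi27, Parp10, Ifi27l2b, Stat2 and Ifitm3 also passed, by 1.36 down to 0.59, and Irf5 was lower by 0.74. By size, 22 members were higher by 1 or more (10.6% of all genes) and 0 lower (2.4%). All 4 livers lay above the 3-month ATRi mean for 25 members (34.4% of all genes). Without M548 7 members passed upward, and without M545, M547 or M548 0 passed downward. Macrophage markers were higher in 9 of 9 (6 passed, median 1.515) and neutrophil markers in 7 of 7 (6 passed, 3.214). Hepatocyte markers were lower in 5 of 5 (2 passed, −0.502). Their part was not tested.

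Whether the difference made by ATRi at 72 h itself depended on age was tested as an interaction. In limma 0 members passed in either direction (0.00899% of all genes upward, 0.0% downward), and 3 had an unadjusted p under 0.05 (24.4% of all genes). The members' median was −0.07, and it changed sign without M545 (0.067) or M548 (0.014). Without M546, 1 member passed upward and 2 downward.

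Other genes of the pathway were read from lists of receptors, signalling molecules, sensing adaptors and further interferon-stimulated genes. Of the interferons and their receptors, 6 of 13 listed genes were measured, all of them receptor chains; interferon genes themselves were not analysed here. In untreated 12-month mice 0 of 6 receptor genes differed by 1 or more between 48 and 72 h or between 0 and 72 h, with medians of 0.029 and −0.067. Under ATRi at 72 h, Ifnar2 (1.24, adjusted p = 0.0089) and Ifngr2 (1.18, adjusted p = 0.0093) were higher at 12 than at 3 months, where 18.3% of all genes passed upward.

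Signalling genes (9 of 11 measured) had a median of −0.055 from 48 to 72 h in untreated 12-month mice, with 0 past the threshold. Socs3, a feedback inhibitor of JAK signalling, was higher at 48 h than at 0 h at 12 months (1.34) and higher at 72 h than at 0 h at 3 months (1.05), and at 72 h in 3-month mice it was lower with ATRi (−1.37). In 12-month mice at 72 h, 3 signalling genes rose with ATRi, where 9.04% of all genes passed upward. They were the phosphatase genes Ptpn2 (2.01, adjusted p = 0.0434) and Ptpn11 (0.95, adjusted p = 0.0442), and Pias1 (0.99, adjusted p = 0.0429), an inhibitor of STAT signalling. The alternative runs are reported for members only and not for genes of these lists.

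Sensing adaptors and nucleases (16 of 25 measured) had a median of 0.393 from 48 to 72 h in untreated 12-month mice. Tlr9 (1.51) and its chaperone Unc93b1 (1.30) were the 2 past the threshold. The cytosolic DNA sensor gene Mb21d1 (cGAS) differed by −0.01, its adaptor Tmem173 (STING) by 0.24 and Mavs, the adaptor of RIG-I and MDA5, by −0.13. In the same interval with ATRi, the kinase genes Tbk1 (1.26, adjusted p = 0.0387) and Ikbke (1.56, adjusted p = 0.0205) rose, and Mavs fell (−0.59, adjusted p = 0.0404). Of all genes 19.4% passed upward there and 17.8% downward.

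Interferon-stimulated genes outside the name pattern (30 of 41 measured) were also mostly higher in untreated 12-month mice at 72 h: 29 of 30 were higher at 72 than at 48 h (median 0.556, 6 by 1 or more, where 3.32% of all genes were), 27 of 30 higher than at 0 h (0.590, 4 by 1 or more, against 2.92%) and 30 of 30 higher than in 3-month mice at 72 h (0.679, 5 by 1 or more, against 1.97%). Trim30a (1.63), Slfn5 (1.42) and Ddx60 (1.35) had the largest differences from 48 to 72 h. The Schlafen gene Slfn9 differed by 2.02 between 0 and 72 h but was high by 48 h already. Its untreated 12-month means were 1.74 at 0 h, 3.61 at 48 h and 3.77 at 72 h. At 3 months it was also higher at 48 h (3.45) than at 0 h (2.29). At 3 months 16 of 30 were higher at 72 than at 48 h (0.034).

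Members with and without ISRE letters in the window were set side by side for the untreated 12-month mice. At 72 h minus 0 h the 22 with the letters had a median of 1.074 (0.202 to 2.297) and the 20 without 0.305 (−0.989 to 2.170). At 72 h minus 48 h the medians were 0.956 and 0.850, and 9 of each differed by 1 or more. The ranges overlap in both comparisons. Ifi44, without an exact match in this window but with similar letters, had the largest difference of the 20 in both.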

How the data were processed

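The members, role groups, gene lists, tests and alternatives were chosen with earlier results of these data known. Per the labels, polyadenylated RNA of 40 samples of mouse liver was sequenced. The authors deposited log2 levels of sigma in 12 tables of 11119 genes; how sigma was made, the aligner, counting and scaling are not given in the sources used here. The submitters' processing notes name the build GRCm38/mm10. Read depth is unknown, so no interval that needs it is given, and it is not stated whether mice were littermates.

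Each difference subtracts the log2 level of the group named second. Where both groups were deposited as 1 mean (11 comparisons), a difference of 1 or more was counted without a test. The other 5 were tested in limma 3.58.1 (R 4.3.3): 1 fit over all groups, the 4 livers with weight 1 after a shift per gene to their deposited mean, each other mean as 1 observation weighted by its mice, intensity trend, robust empirical Bayes, two-sided, Benjamini-Hochberg over 11119 genes, adjusted p under 0.05. The spread comes from the 4 livers alone, and the same spread is taken for every other group. The borrowed-spread counts apply this fit to the 11 comparisons. The fit was also run on simulated data with independent noise and the same spread trend in every group. Such data cannot check whether the borrowed spread holds for the other groups. Full values are printed for the 2 members (3 in groups of 8 or more) of each role with the widest range over the 9 means; in comparisons, up to 4 called members in each direction, and in the ATRi comparisons every called member. Pathway genes come from fixed lists, up to 3 with the largest difference, and genes beside them were named after their values were seen. Gene positions are from GENCODE M21, and promoters from RefSeq (GRCm38.p6). Alternatives were centring on all genes, leaving out genes with a mean level under 1, livers as deposited, no trend, a difference of 1, and leaving out each liver. Results of single members that are not named are not reported here.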

Additional observations from a re-analysis of the deposited data

Results flagged for a closer look

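Gbp6, a guanylate-binding protein gene, had 1 liver far from the others among the 12-month ATRi mice at 72 h: the level was 0.552 in M545, against 1.777 to 1.885 in M546, M547 and M548. The value in M545 is close to that table's lowest value of 0.5. Of the 60 members only this one had such a liver (1.67%), against 688 of all genes (6.19%); chance flags about 1 in 20.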

How the results depend on the processing

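No paired analysis was possible because all groups but 1 were deposited as a single mean, so same-numbered mice cannot be matched. A second log offset could not be tried on values deposited as log2, and keeping 1 member per 10000 bp bin changed nothing, since no 2 members share a bin. Centring on the median of all genes gave 1 member higher for age at 0 h, 2 lower for 48 h at 3 months, 0 lower for 72 h at 3 months against 0 h, 0 higher and 1 lower for ATRi at 72 h at 12 months, 2 lower between ages under ATRi and 3 lower for ATRi at 72 h against 0 h. Leaving out low genes gave 2 lower between ages under ATRi. With the borrowed spread the counts of higher and lower members were 3 and 0 for age at 0 h, 3 and 4 for 48 h and 3 and 3 for 72 h against 0 h at 3 months, 0 and 0 from 48 to 72 h at 3 months, 1 and 2 for 48 h, 11 and 3 for 72 h and 9 and 1 from 48 to 72 h at 12 months, 2 and 0 for age at 72 h, and 0 and 0 for ATRi at 48 h. For ATRi at 72 h at 12 months, the livers as deposited gave 0 and 0, no trend 1 and 1, and a difference of 1 gave 1 and 1. A difference of 1 gave 22 and 0 between ages under ATRi, 1 lower from 48 to 72 h with ATRi, 2 lower against 0 h, and 1 and 3 for the interaction; no trend gave 3 lower against 0 h.

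Leaving out 1 liver gave 0 to 2 members in either direction for ATRi at 72 h, 7 to 15 higher and 0 to 1 lower between ages under ATRi, 13 to 23 higher and 1 to 3 lower from 48 to 72 h with ATRi, 12 to 20 higher and 2 to 5 lower against 0 h, and 0 to 1 higher and 0 to 2 lower for the interaction. The longer ISRE letters stood in 12 members. The causes were not tested. Of the remaining counts and medians, 178 values stayed close to the main ones. Of the values for single called members, taken with the counts of members highest in each liver, 390 stayed the same. In 129 a member lost its call, and 0 reversed. Every alternative run kept the call for 12 members against 0 h, 10 from 48 to 72 h and 4 between ages (Ifi27, Irf2, Parp10 and Zbp1) under ATRi. Depth is unknown, so small differences of low members (10 had a mean level under 1) cannot be weighed against counting error.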
